A study of Saccharomyces cerevisiae with 60 samples.

Results

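The recombination enhancer (RE) lies on the left arm of chromosome III between KAR4 and SPB1, and its ChIP signal was read here in 140 windows of 50 bp out of 241434 in the genome. The windows run without a gap on chromosome III up to position 33000 in the coordinates of the deposited files, whose chromosome lengths are those of the R64 assembly. Of these, 51 make up the RE interval, which runs from the window with the KAR4 stop codon to the window with the SPB1 start codon. They were chosen by position, with no use of the signal. From left to right the region holds the end of PRD1, a metalloendopeptidase gene (YCL057W, 24768 to 26906), and PEX34, a gene of peroxisome biology on the other strand (YCL056C, 26925 to 27359). These are followed by KAR4 (YCL055W, 27929 to 28936), RDT1 (YCL054W-A, 30910 to 30996) and SPB1 (YCL054W, 31449 to 33974). The replication origin ARS304 is known to lie in the RE, but its position was not analysed here.

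Budding yeast of mating type a repair the HO endonuclease cut at MAT mostly from the silent cassette HML, and the RE is the element in cis that gives this preference to the left arm. Fkh1, a transcription factor of the forkhead family, binds the RE through its forkhead domain and recognizes phosphorylated threonines through its FHA domain, which is how the RE is thought to be brought near the cut. In cells of mating type α the element is turned off by the Matα2 repressor with Mcm1. KAR4 encodes a transcription factor needed for nuclear fusion in mating, RDT1 is a small gene within the RE, and SPB1 encodes a methyltransferase that acts in the assembly of the large ribosomal subunit.

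The study comprised 60 libraries in 20 groups of 3, made from MATa bar1Δ cells of the W303 background, so all groups had the mating type in which the RE is active. Cultures were grown at 23 °C and were either unsynchronized or, in the groups whose names begin with G1, held with α-factor for 3.5 h. G1 phase and the response to α-factor therefore cannot be told apart in any comparison between phases. MOP, FLOP and HOP are control strains that express the bacterial protein LexA with a MYC, FLAG or HA tag, from a construct integrated beside ADE2 (MOP and FLOP) or TRP1 (HOP). Target proteins carried the matching tag in the same strain: Fkh1-MYC(MOP), Fkh1-FLAG(FLOP), Orc1-HA(HOP), Mcm4-HA(HOP) and Sir2-FLAG(FLOP), the last 3 in G1 only. Fkh1-MYC and Fkh1-FLAG without a LexA construct were set against fkh1-dbm-MYC and fkh1-dbm-FLAG, whose forkhead domain was mutated, and an untagged strain was subjected to IP with each antibody. The unsynchronized HA groups were precipitated with 2 anti-HA antibodies and the G1 groups with 1 of them, so phase and antibody cannot be told apart between G1 HOP and HOP. Labels do not say whether the 3 libraries of a group came from separate cultures, so the p-values measure the spread between these libraries, which may be technical.

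Signal is the window count after a moving median over 10 windows, divided by the 20th percentile of the library, so 1 is about the background of that library. Summed counts per library ranged from 2116658 to 44263661, and the 20th percentile from 6 to 128 counts per window. It was lowest, at 6 to 16.5 counts, in the untagged anti-MYC, MOP, Fkh1-MYC(MOP), G1 MOP, G1 Fkh1-MYC(MOP), G1 HOP and G1 Orc1-HA(HOP) groups, whose window values are the least precise. Over the 140 windows, the log2 unsmoothed signals of replicates correlated at 0.967 to 0.995 in the 4 unsynchronized Fkh1 groups, and at -0.06 to 0.41 in untagged anti-MYC, where the profile was nearly flat and the counts were low (a description over neighboring windows that share reads).

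The strain with the DNA-binding mutant is what sets Fkh1 bound through its forkhead domain apart from the rest of the signal at the RE. The 2 oligonucleotides that introduced the mutations into FKH1 (chromosome IX, 100781 to 102235) are therefore shown, from the study's primer list, with capitals for the 10 bases that the list sets apart in each. The oligonucleotides overlap by 34 bases, and the capitals fall at the same positions in that overlap.
Fwd_dbm_tail: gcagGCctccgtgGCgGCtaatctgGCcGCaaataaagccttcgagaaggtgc
Rev_dbm_tail: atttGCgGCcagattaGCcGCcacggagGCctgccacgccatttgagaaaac

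Fkh1 gave 1 peak in the region, with its summit in the window that starts at 29101 or the next one, and the first of these began 165 bp right of the KAR4 stop codon and 1809 bp left of RDT1. Window 29101 was picked as the highest unsmoothed window of the Fkh1-MYC(MOP) mean, so its values describe the peak and are not a test of it. In that window the signal was 37.9, 35.7 and 44.5 in the 3 Fkh1-MYC(MOP) libraries, against 1.05, 1.22 and 1.35 in MOP. It was 6.43, 7.47 and 11.3 in Fkh1-FLAG(FLOP), against 0.613, 0.638 and 0.655 in FLOP. Every Fkh1 library thus lay far above every LexA control library of its tag. Before smoothing these were 677, 622 and 726 reads in Fkh1-MYC(MOP), against 14, 15 and 21 in MOP, and 958, 1101 and 1313 in Fkh1-FLAG(FLOP), against 40, 61 and 47 in FLOP.

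**Figure D1:**
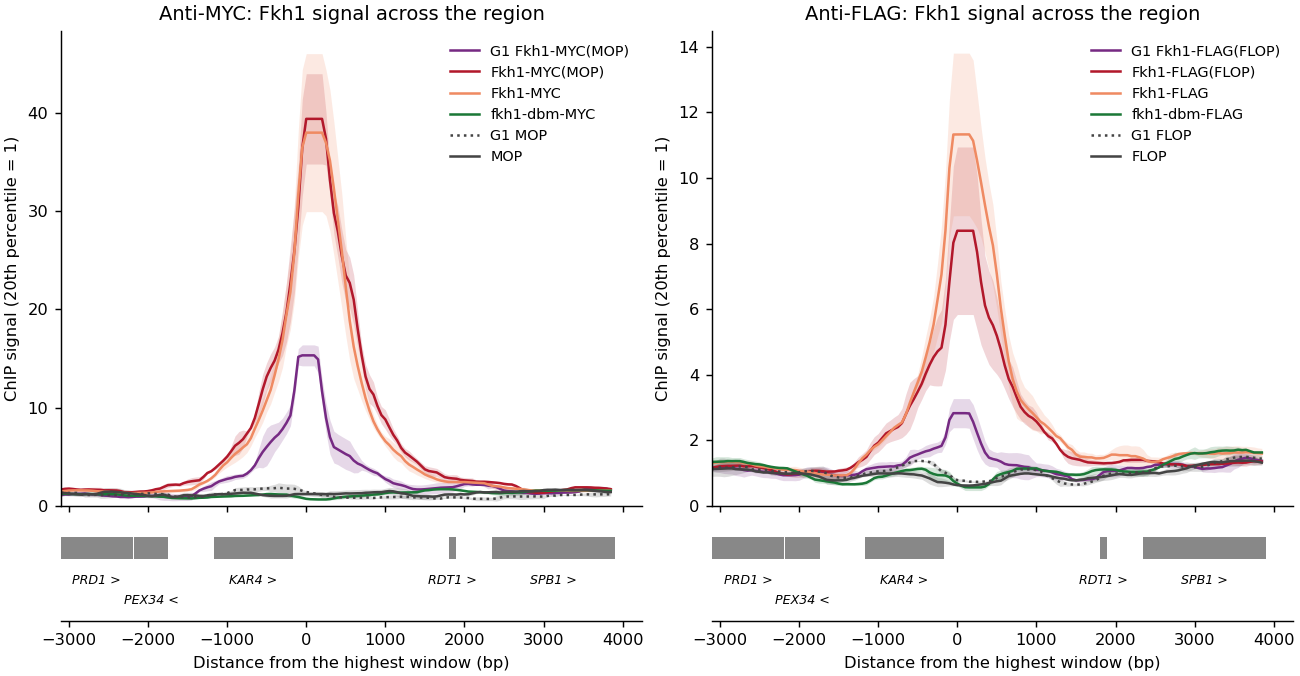
Signal (20th percentile of the library = 1) of 6 groups each for anti-MYC and anti-FLAG, by distance in bp from the window that starts at 29101. Lines are means of 3 libraries, bands are ± 1 SD and gray bars are genes. The Fkh1 groups form 1 peak between KAR4 and RDT1, lower in G1, and the fkh1-dbm and LexA controls stay below 2 throughout.

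The moving median gave exactly 1 local maximum in each of the 6 Fkh1 groups and 0 in the other 14 groups, at a prominence of 10% of the highest value and a signal of at least 2. The count was the same in all 20 groups with the prominence at 5% or 20%. Mean heights at the maximum were 39.4 in Fkh1-MYC(MOP), 38.0 in Fkh1-MYC, 15.3 in G1 Fkh1-MYC(MOP), 11.3 in Fkh1-FLAG, 8.39 in Fkh1-FLAG(FLOP) and 2.83 in G1 Fkh1-FLAG(FLOP). The 3 highest and the next 3 are separated by tag. Within a tag, Fkh1-MYC(MOP) and Fkh1-MYC overlapped, and so did Fkh1-FLAG and Fkh1-FLAG(FLOP), while G1 lay below. Without the moving median the highest window was 29101 or 29151 in all 18 Fkh1 libraries. The FKH1 alleles with and without a LexA construct therefore placed the summit within 1 window of each other.

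**Figure D2:**
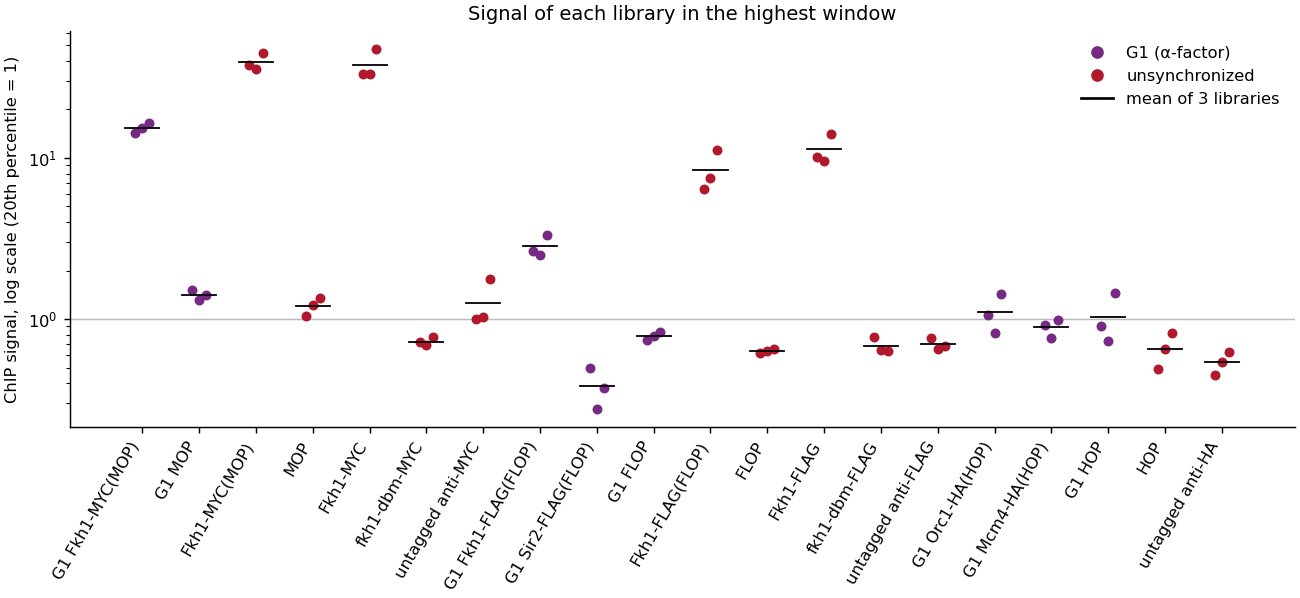
Signal of every library in the window that starts at 29101, on a log axis (20th percentile of the library = 1). Each point is 1 library, the line is the mean of 3, and color gives the phase. The 6 Fkh1 groups lie above 2, and Sir2 lies lowest at 0.278 to 0.495.

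In 14 bins of 500 bp tested with edgeR, 7 were higher in Fkh1-MYC(MOP) than in MOP at an adjusted p below 0.05 and at least 2-fold, and 0 were lower. Over the genome 3% of 20869 bins were higher by this rule and 0.0192% lower. The next bin, 31001, had 0.95 ± 0.17 and was called without Fkh1-MYC(MOP) replicate 1, MOP replicate 2 or MOP replicate 3 (1.01 to 1.03). The called bins ran without a gap from 27501 to 31000, and the log2 fold change was 4.90 ± 0.24 (SE) in the bin at 29001 (adjusted p = 7.7e-32), with only 2 bins of the genome above it. For FLAG, 5 bins were called from 28001 to 30500, against 1.66% of all bins. The bin at 29001 was higher by 3.72 ± 0.15 in Fkh1-FLAG(FLOP) than in FLOP (adjusted p = 2.4e-28), with 1 bin of the genome above it.

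The enrichment covered the KAR4 coding region and decreased toward PEX34 on the left and SPB1 on the right. Averaged over KAR4, the signal was 10.3, 8.93 and 10.9 in Fkh1-MYC(MOP), against 1.12, 1.23 and 1.16 in MOP, and 2.45, 2.84 and 3.42 in Fkh1-FLAG(FLOP), against 0.914, 0.833 and 1.03 in FLOP. The Fkh1 and control libraries did not overlap there for either tag. The bins that hold the middle and the 3′ end of KAR4, 28001 and 28501, were higher by 2.25 ± 0.16 and 4.01 ± 0.18 on the log2 scale in Fkh1-MYC(MOP). With FLAG the same bins were higher by 1.18 ± 0.11 and 2.38 ± 0.12, so the signal mounted toward the 3′ end of the gene with both tags.

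At RDT1 the signal was 2.45, 2.88 and 3.14 in Fkh1-MYC(MOP), against 0.955, 1.26 and 1.29 in MOP. It was 1.37, 1.23 and 1.31 in Fkh1-FLAG(FLOP), against 0.919, 0.758 and 0.970 in FLOP, without overlap for either tag. The bin with RDT1, 30501 to 31000, was called with MYC (1.61 ± 0.17, adjusted p = 6.5e-13), and with FLAG it passed the adjusted p but not the 2-fold minimum (0.68 ± 0.10, adjusted p = 2.6e-07), as did 12.3% of all bins upward by the adjusted p alone. Over the SPB1 windows, Fkh1-MYC(MOP) averaged 1.81 ± 0.0241 against 1.52 ± 0.0684 in MOP, and Fkh1-FLAG(FLOP) 1.30 ± 0.0344 against 1.21 ± 0.0204 in FLOP (SD, n = 3 each). No bin from 31501 to 33000 was called with either tag. PEX34 averaged 1.64 ± 0.135 in Fkh1-MYC(MOP) against 1.11 ± 0.140 in MOP, and 1.01 ± 0.0913 in Fkh1-FLAG(FLOP) against 0.968 ± 0.0220 in FLOP (SD, n = 3 each). The libraries did not overlap at PEX34 with MYC, and they overlapped with FLAG. The bin at 27001, which holds most of PEX34, was higher with MYC by 0.78 ± 0.18 (edgeR, adjusted p = 6.1e-04), under the 2-fold minimum, where 8.37% of all bins were higher by adjusted p alone. With its middle window alone this bin was called, at 1.33 (adjusted p = 1.8e-03).

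Windows of the moving median gave a similar extent. Each such value also draws on neighboring windows, and the libraries are those of the bins. The similar extent is therefore partly built in and is neither a separate test nor a gain in resolution. In 61 of 140 windows the lowest Fkh1-MYC(MOP) library was at least 2 times the highest MOP library, against 1.52% of 209489 windows in the genome, and they reached from 27801 to 30850. With FLAG there were 39 such windows, against 0.823%, from 28451 to 30400. Over fkh1-dbm there were 56 for Fkh1-MYC, against 2.09%, and 38 for Fkh1-FLAG, against 1.07%. In G1 there were 41 for G1 Fkh1-MYC(MOP) over G1 MOP, against 2.88%, and 8 for G1 Fkh1-FLAG(FLOP) over G1 FLOP, against 0.404%, the last within 400 bp. The stretch of separated windows was thus shortest in G1 with FLAG.

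The peak was missing in the forkhead domain mutant with both tags. In the window at 29101 the signal was 33.3, 33.4 and 47.3 in Fkh1-MYC, against 0.718, 0.688 and 0.770 in fkh1-dbm-MYC, and 10.2, 9.62 and 14.2 in Fkh1-FLAG, against 0.770, 0.640 and 0.633 in fkh1-dbm-FLAG. All mutant libraries were below 1. In edgeR, 6 bins were higher in Fkh1-MYC than in fkh1-dbm-MYC, against 3.31% of all bins, with 5.76 ± 0.13 at 29001 (adjusted p = 3.2e-51). For FLAG 5 bins were higher, against 1.85%, with 4.21 ± 0.11 at 29001 (adjusted p = 2.7e-46). In both comparisons 1 bin of the genome had a larger change than the bin at 29001.

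Set against the untagged strain, fkh1-dbm was called in none of the 14 bins with either tag. At an unadjusted p below 0.05 there were 4 bins for MYC and 1 for FLAG, and DESeq2 also called 0 for both. Over the genome 0.977% of bins were higher and 0.125% lower in fkh1-dbm-MYC, and 0.0958% were higher and 0.345% lower in fkh1-dbm-FLAG. Of the bins that passed the adjusted p alone, the one that holds RDT1 was higher with both tags, by 0.86 ± 0.18 for MYC (adjusted p = 9.2e-03) and by 0.43 ± 0.11 for FLAG (adjusted p = 5.9e-03). The only other such bin, 28001 in KAR4, was lower for MYC (-0.51 ± 0.14, adjusted p = 0.047), as were 2.37% of all bins by adjusted p alone. The adjusted p alone was passed upward by 3.54% of bins for MYC and by 4.23% for FLAG, and the median log2 change of all bins was -0.12 for MYC. The window at 30701, left of RDT1, had the highest ratio of fkh1-dbm-MYC to untagged in the region and is given for that reason, as a description. Its signal was 1.60, 1.62 and 1.77 in fkh1-dbm-MYC, against 0.750, 0.552 and 1.14 in untagged anti-MYC. It was 1.06, 0.960 and 0.886 in fkh1-dbm-FLAG, against 0.766, 0.670 and 0.627 in untagged anti-FLAG. Over the RDT1 windows themselves it was 1.71, 1.60 and 1.78 in fkh1-dbm-MYC, against 1.17, 1.09 and 1.43 in untagged anti-MYC, with no overlap, and 1.19, 1.14 and 1.00 in fkh1-dbm-FLAG, against 0.823, 0.887 and 1.07 in untagged anti-FLAG, which overlapped. Without untagged anti-MYC replicate 3, the MYC bin was called at 1.06 (adjusted p = 1.7e-03).

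The change at the RE was larger with MYC than with FLAG. The difference of the 2 changes, each relative to its own LexA control, was called in 5 of 14 bins in unsynchronized cells, against 0.216% of all bins, with 1.62 ± 0.23 at 28501 (adjusted p = 1.6e-05) and 1.18 ± 0.28 at 29001 (adjusted p = 0.027). Without MOP replicate 1, Fkh1-FLAG(FLOP) replicate 1 or FLOP replicate 3 it was called in 3 bins each. Relative to fkh1-dbm it was called in 4 bins, against 0.12%, with 1.56 ± 0.15 at 29001 (adjusted p = 2.1e-13). In G1 it was called in 5 bins, against 4.07%, with 1.63 ± 0.24 at 29001 (adjusted p = 6.6e-06). The tag, its number of repeats and the antibody change together in these comparisons and cannot be told apart. In the LexA strains the promoter of the LexA construct differed too, and so did depth. The 20th percentile was 14 to 16.5 counts in Fkh1-MYC(MOP), against 101 to 128 in Fkh1-FLAG(FLOP).

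In G1 the peak was lower with both tags. At 29101 the signal was 14.3, 15.2 and 16.4 in G1 Fkh1-MYC(MOP), against 37.9, 35.7 and 44.5 in Fkh1-MYC(MOP), and 2.65, 2.50 and 3.33 in G1 Fkh1-FLAG(FLOP), against 6.43, 7.47 and 11.3 in Fkh1-FLAG(FLOP). In G1 the LexA controls were at 1.52, 1.32 and 1.41 in G1 MOP and at 0.744, 0.785 and 0.832 in G1 FLOP. The G1 and unsynchronized libraries of Fkh1 did not overlap for either tag, and G1 Fkh1 remained above its control.

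The difference between the G1 change and the unsynchronized change, each relative to its own LexA control, was called as lower in 5 of 14 bins with MYC and in 5 with FLAG. Over the genome 0.196% of bins were lower with MYC and 0.172% with FLAG, and 1.23% and 0.0335% were higher. The bins were 28001 to 30500 for both tags. The difference was -1.88 ± 0.26 with MYC (adjusted p = 1.8e-07) and -1.97 ± 0.19 with FLAG (adjusted p = 1.3e-09) at 28501, the 3′ part of KAR4. In that bin the LexA controls were themselves higher in G1, by 0.73 ± 0.21 for MOP and 0.66 ± 0.12 for FLOP. This rise enters the difference, and its part was not tested. In the bin at 29501 G1 MOP was lower than MOP (-0.68 ± 0.24), which enters the MYC difference there and was not tested either. At 29001 the difference was -1.37 ± 0.26 with MYC (adjusted p = 3.3e-04) and -1.81 ± 0.22 with FLAG (adjusted p = 1.7e-07). Within G1, 7 bins were called higher in G1 Fkh1-MYC(MOP) than in G1 MOP, against 5.78% of all bins, and 1 in G1 Fkh1-FLAG(FLOP) than in G1 FLOP, against 0.743%. The log2 fold change at 29001 was 3.53 ± 0.21 with MYC, with 25 bins of the genome above it, and 1.91 ± 0.16 with FLAG, with 31 bins above it. Of the 7 MYC bins, the bin at 28001 fell short of the 2-fold minimum without G1 MOP replicate 1, at 0.99.

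The unsmoothed peak also differed in shape between the phases. The measures of shape were chosen after the profiles had been seen, and the smallest p that the two-sided exact permutation test of 3 against 3 libraries can give is 0.1. The unsmoothed peak was 350 bp wide at 50% of its height in each of the 3 G1 Fkh1-MYC(MOP) libraries, against 800, 800 and 650 bp in Fkh1-MYC(MOP). It was 500, 350 and 450 bp wide in G1 Fkh1-FLAG(FLOP), against 950, 650 and 650 bp in Fkh1-FLAG(FLOP). The G1 libraries were narrower without overlap for both tags (exact permutation p = 0.1 each, 0.143 after adjustment over 20 tests). With the moving median the width in G1 was smaller only with MYC, at 650 against 867 bp. With FLAG the order turned round, at 1317 bp in G1 Fkh1-FLAG(FLOP), against 1033 bp in Fkh1-FLAG(FLOP).

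In the unsmoothed signal the shoulder away from KAR4 was lower in G1. The log2 ratio of the right shoulder (29351 to 29600) to the summit (29051 to 29200) was -2.37, -1.60 and -1.81 in G1 Fkh1-MYC(MOP), against -0.54, -0.45 and -0.75 in Fkh1-MYC(MOP). It was -0.99, -1.57 and -1.25 in G1 Fkh1-FLAG(FLOP), against -0.50, -0.65 and -0.67 in Fkh1-FLAG(FLOP). Both differences had no overlap between phases (-1.35 with MYC and -0.66 with FLAG, exact permutation p = 0.1 each, 0.143 adjusted). With the moving median they were -0.92 with MYC and -0.35 with FLAG. The left shoulder (28651 to 28900) stood at -1.52 ± 0.13 in G1 Fkh1-MYC(MOP) and -1.35 ± 0.06 in Fkh1-MYC(MOP), and at -1.18 ± 0.15 in G1 Fkh1-FLAG(FLOP) and -1.07 ± 0.18 in Fkh1-FLAG(FLOP) (SD, n = 3 each). The KAR4 body (27951 to 28500) relative to the summit was -2.79 in G1 Fkh1-MYC(MOP) and -2.78 in Fkh1-MYC(MOP), and -1.60 in G1 Fkh1-FLAG(FLOP) and -2.05 in Fkh1-FLAG(FLOP), with no overlap for FLAG only (exact permutation p = 0.1, 0.143 adjusted). Libraries of the phases overlapped at the left shoulder with both tags (exact permutation p = 0.2 and 0.4, 0.267 and 0.471 adjusted). The background adds more to these ratios in FLAG, whose summit was 3.95 ± 0.529 in G1 and 9.89 ± 3.02 in unsynchronized cells (SD, n = 3 each, unsmoothed).

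**Figure D3:**
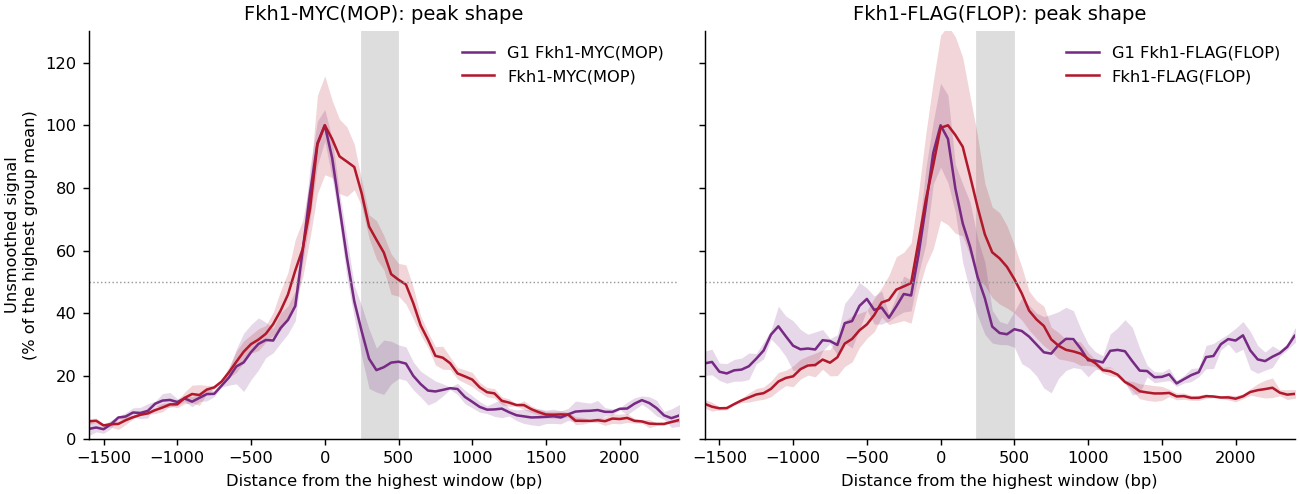
Unsmoothed signal as percent of the highest group mean, by distance in bp from the window that starts at 29101, for G1 and unsynchronized Fkh1 with each tag. Lines are means of 3 libraries, bands are ± 1 SD, the gray block is the right shoulder and the dotted line is 50%. The G1 curves drop sooner on the right, and the left flanks run together in MYC.

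On the right of the region, G1 Fkh1-MYC(MOP) was called higher than G1 MOP up to the bin with the SPB1 start codon. Between RDT1 and SPB1 the signal was 1.97, 2.20 and 2.19 in G1 Fkh1-MYC(MOP), against 0.887, 0.636 and 0.841 in G1 MOP, with no overlap. The bin from 31001 to 31500 was higher by 1.54 ± 0.23 (edgeR, adjusted p = 1.4e-07), more than the 1.20 ± 0.25 of the RDT1 bin beside it. In unsynchronized cells this bin changed by 0.95 ± 0.17, and the difference between phases was not called (0.58 ± 0.28, edgeR, adjusted p = 0.43). The Fkh1-MYC(MOP) signal itself was 2.13 ± 0.06 in G1 and 2.54 ± 0.24 in unsynchronized cells (SD), so a farther reach in G1 was not shown. Over the SPB1 windows the signal was 1.59, 1.47 and 1.53 in G1 Fkh1-MYC(MOP), against 0.898, 1.09 and 1.09 in G1 MOP, still without overlap. The 3 bins from 31501 on did not pass the adjusted p (0.63, 0.39 and 0.55 on the log2 scale), and with the middle window alone 32501 was called, at 1.03 (adjusted p = 0.027). In FLAG the RDT1 to SPB1 segment had 1.15, 1.20 and 0.972 in G1 Fkh1-FLAG(FLOP), against 0.998, 0.988 and 0.978 in G1 FLOP, which overlapped. The difference between tags was called at this bin in G1 (1.39 ± 0.26, adjusted p = 2.5e-04). G1 MOP itself was lower than MOP in this bin (-0.80 ± 0.24, adjusted p = 0.014, with 3.03% of all bins lower by adjusted p alone), which moves with the MYC value, and its part in the result was not tested.

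Mcm4, a subunit of the replicative helicase that is loaded at origins in G1, was higher than HOP in 1 bin of the RE, 30001 to 30500, by 1.09 ± 0.22 on the log2 scale (edgeR, adjusted p = 2.0e-04). Over the genome 2.17% of bins were higher and the median change of all bins was -0.10. The bin signal was 1.48, 1.51 and 1.65 in G1 Mcm4-HA(HOP), against 0.579, 0.845 and 1.06 in G1 HOP, and these did not overlap. The call rests on the choice of window and of library. The middle window alone gave 0.89 (edgeR, adjusted p = 0.067), which failed both the adjusted p and the 2-fold minimum. Without G1 HOP replicate 1 the value was 0.86, under the 2-fold minimum. Without G1 HOP replicate 2 the bin at 27501 was also called, as lower at -1.01 (adjusted p = 0.046). Without the moving median Mcm4 had a local maximum of 2.07 at the window 30201, and it had none with it.

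Orc1, the largest subunit of the origin recognition complex, was not called in any of the 14 bins over G1 HOP, while 3.72% of all bins were higher and 0.182% lower. At an unadjusted p below 0.05 there were 4 bins, and DESeq2 called 0. The bin at 30001 had a signal of 0.991, 1.52 and 1.11 in G1 Orc1-HA(HOP), against 0.579, 0.845 and 1.06 in G1 HOP, which overlapped. Its log2 change was 0.68 ± 0.26 (adjusted p = 0.076), beside a median of -0.11 for all bins. Set against each other, Orc1 and Mcm4 differed in 0 bins, with 6 at an unadjusted p below 0.05 and 0 with DESeq2, against 1.41% of all bins that were higher and 0.024% that were lower.

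Sir2, the deacetylase of silent chromatin at HML and HMR, was lower than FLOP over the left part of the RE. In the bin at 29001 the signal was 0.454, 0.307 and 0.346 in G1 Sir2-FLAG(FLOP), against 0.754, 0.792 and 0.799 in G1 FLOP, and at 29501 it was 0.634, 0.289 and 0.397, against 0.863, 0.924 and 1.07. Sir2 lay below FLOP in every library at both bins. The log2 changes were -1.14 ± 0.22 and -1.04 ± 0.20 (edgeR, adjusted p = 6.9e-05 each), and both bins were called as lower, against 1.32% of all bins. The median change of all bins was 0.16. Without G1 Sir2-FLAG(FLOP) replicate 2 the values were -0.99 and -0.84, and neither bin was called. At 29501 the call was also lost without G1 Sir2-FLAG(FLOP) replicate 3 (-0.96) or G1 FLOP replicate 3 (-0.91), and with the middle window both bins fell under the minimum, at -0.93 and -0.91.

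**Figure D4:**
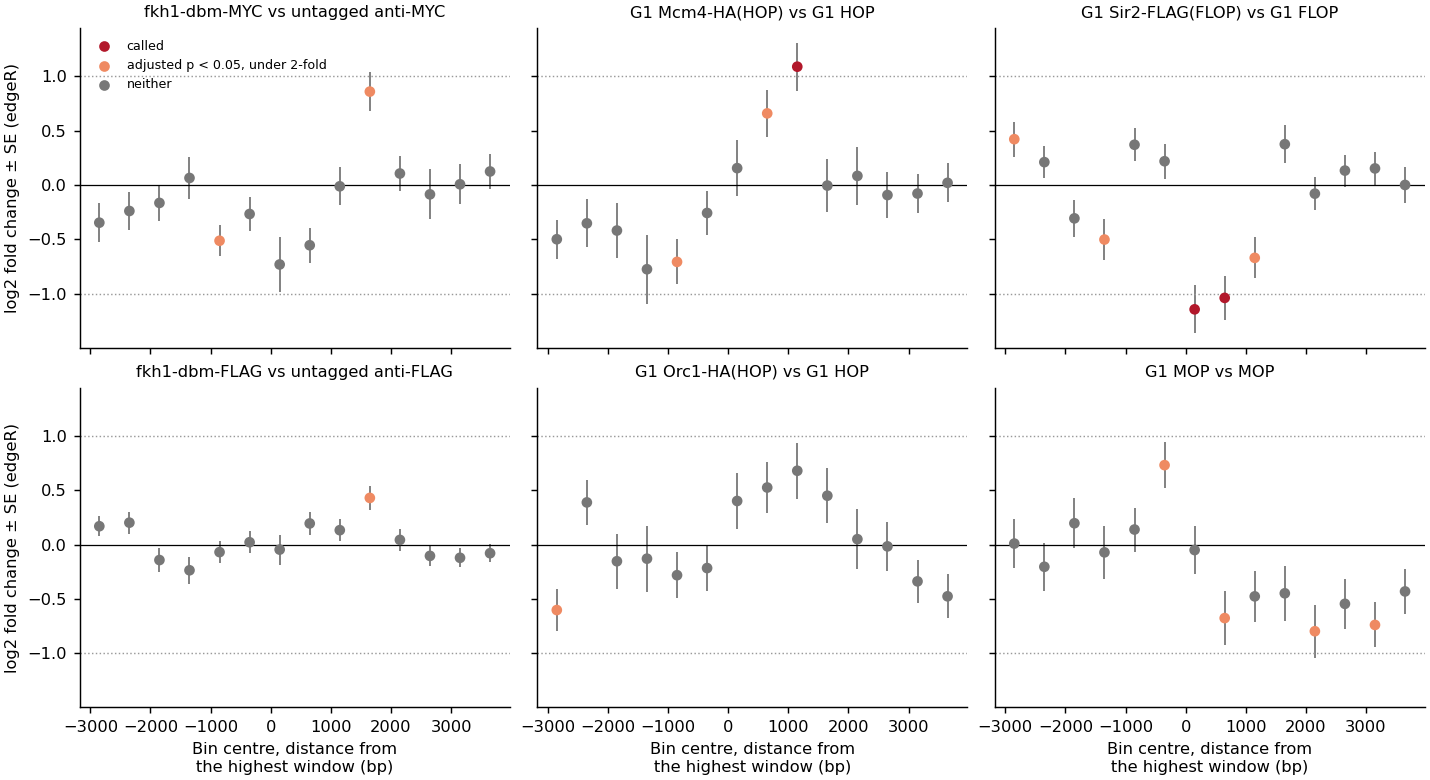
Log2 fold change of each of the 14 bins from edgeR, ± SE, by distance of the bin centre in bp from the window that starts at 29101, for 6 comparisons with 3 libraries a group. Red points were called, orange points passed the adjusted p only, and dotted lines mark 2-fold. Mcm4 has 1 called bin, Sir2 has 2 called bins that are lower, and fkh1-dbm-MYC and fkh1-dbm-FLAG each have an orange point above 0 at the RDT1 bin.

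The lowest signal of the region lay just right of the Fkh1 summit in 8 of the 14 groups without a Fkh1 peak. The lowest window of the smoothed group mean started at 29201 to 29301 in fkh1-dbm-FLAG (0.566), FLOP (0.620), untagged anti-FLAG (0.598), HOP (0.552) and untagged anti-HA (0.428), and at 29401 in G1 Sir2-FLAG(FLOP) (0.284) and G1 HOP (0.530). Of the windows outside the region, 1.92% were lower than this in fkh1-dbm-FLAG, 1.92% in FLOP and 0.873% in G1 Sir2-FLAG(FLOP). With MYC, fkh1-dbm-MYC was lowest at 29251 (0.662), whereas MOP and untagged anti-MYC were at 1.21 ± 0.155 and 1.27 ± 0.430 at 29101 (SD, n = 3 each). The 20th percentile was 62.5 to 82.5 counts in fkh1-dbm-MYC, but 11 to 15.5 in MOP and 6 to 14.5 in untagged anti-MYC. Strain and depth therefore cannot be told apart in this contrast. The other 6 groups, which were MOP, untagged anti-MYC, G1 MOP, G1 FLOP, G1 Orc1-HA(HOP) and G1 Mcm4-HA(HOP), had their lowest window elsewhere. In the window at 29101 fkh1-dbm-MYC was at 0.725 ± 0.0413, nearer to fkh1-dbm-FLAG (0.681 ± 0.0771) and FLOP (0.635 ± 0.0212) than to MOP (SD, n = 3 each). The ratio of Fkh1 to control in that window was 32.7 for Fkh1-MYC(MOP) over MOP, 52.4 for Fkh1-MYC over fkh1-dbm-MYC, 13.2 for Fkh1-FLAG(FLOP) over FLOP and 16.6 for Fkh1-FLAG over fkh1-dbm-FLAG. The MYC ratios also come from libraries of unlike depth.

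**Figure D5:**
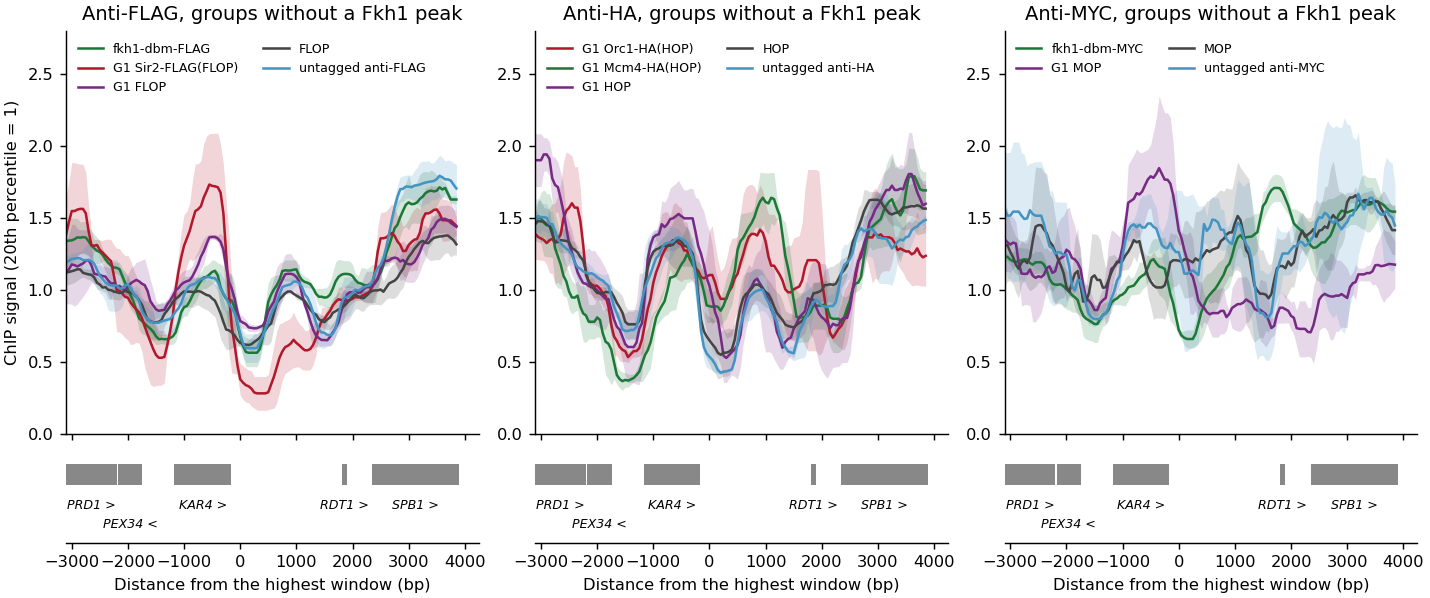
Signal (20th percentile of the library = 1) of the groups without a Fkh1 peak, for anti-FLAG, anti-HA and anti-MYC, by distance in bp from the window that starts at 29101. Lines are means of 3 libraries, bands are ± 1 SD and gray bars are genes. A trough lies right of KAR4 with FLAG and HA and in fkh1-dbm-MYC, and Sir2 is lowest there.

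By adjusted p alone, 1 of 14 bins was higher in G1 in the MYC and in the FLAG control strain, the bin with the 3′ part of KAR4. The bin at 28501 was higher by 0.66 ± 0.12 in G1 FLOP than in FLOP (edgeR, adjusted p = 7.0e-05) and by 0.73 ± 0.21 in G1 MOP than in MOP (adjusted p = 8.2e-03), under the 2-fold minimum in both. In that bin the signal was 1.25, 1.28 and 1.27 in G1 FLOP, against 0.828, 0.734 and 0.977 in FLOP. It was 2.03, 1.94 and 1.38 in G1 MOP, against 0.927, 1.28 and 1.02 in MOP, so that the phases did not overlap for either tag. For HA the change was 0.28 ± 0.16 (adjusted p = 0.18). By adjusted p alone 16.4% of all bins were higher in G1 FLOP and 16.9% in G1 MOP, with medians of 0.08 and 0.15, and the median for HA was 0.23. These shares are larger than 1 bin of 14, so the count does not set the region apart from the genome. For the bin at 28501 itself, 581 of 20873 bins had a larger log2 change in G1 FLOP over FLOP. In G1 MOP over MOP, 1925 of 20861 bins did. No bin of the region was called between phases in these 3 control strains, against 0.79% of all bins higher in G1 FLOP, 3.26% in G1 MOP and 1.56% in G1 HOP, and 0.12%, 0.216% and 0.359% lower. At an unadjusted p below 0.05 there were 2, 7 and 2 bins, and DESeq2 called 0 in each.

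Across the 20 groups, 3 loci outside the region followed the RE bin at 29001 most closely, among 590 bins with at least 2 times as much Fkh1-MYC(MOP) as MOP signal. The first was chromosome VIII 385001 to 385500 by DSE2, a glucanase gene of daughter cells, and CHS7, a gene for chitin synthase export (Pearson's r of log2 group means 0.979, n = 20 groups). The next were chromosome V 298501 to 299000 by RNR1, the large subunit of ribonucleotide reductase, and ARG56 (r = 0.977), and chromosome X 533501 to 534000 by RAD7, a repair gene, and BFA1, a gene of mitotic exit (r = 0.976). These r describe bins that share libraries and antibodies. Bin signals in Fkh1-MYC(MOP) were 8.62, 6.31 and 3.39 at these loci, against 1.23, 1.13 and 1.31 in MOP, and 36.4 against 1.21 at the RE. In G1 Fkh1-MYC(MOP) they were 7.38, 5.44 and 3.29, against 1.19, 0.927 and 1.21 in G1 MOP, and 12.5 against 1.26 at the RE. Among these 4 loci the signal of the RE was the farthest below its own unsynchronized level. The 4 bins were picked with these same signals, so their order is a description and not a test.

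Of 20 genes of mating-type switching and its factors, 18 had a promoter bin that could be tested. In Fkh1-MYC(MOP) 2 were called higher, FKH1 (1.23) and FKH2 (1.80, a forkhead factor related to Fkh1), and in Fkh1-FLAG(FLOP) 1, FKH2 (1.22, all log2 over the LexA control). The shares of all bins were 3% and 1.66%, as above, and the list median was 0.26 and 0.05, against 0.01 and -0.02 over all bins. Over fkh1-dbm the same genes were called, 2 for MYC and 1 for FLAG, with FKH2 at 2.32 for MYC and 1.44 for FLAG. In G1 Fkh1-MYC(MOP) FKH2 (2.24) and YKU80 (1.17) were called, against 5.78% of all bins, and 0 in G1 Fkh1-FLAG(FLOP). Over G1 HOP, Orc1 was called at FKH2 (3.48), MCM1 and YKU70, and Mcm4 at FKH2 (2.07), against 3.72% and 2.17% of all bins. The FKH2 bin was thus not particular to Fkh1. FKH1 is the tagged gene itself, and its promoter bin (102001 to 102500) overlaps the 5′ end of the gene at 102235. Whether the altered allele affects this bin was not tested. HO, the endonuclease gene, was at 0.13 in Fkh1-MYC(MOP) over MOP (edgeR, adjusted p = 0.78). The promoters called with Fkh1 changed less than the RE bin at 29001 in the same comparison.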

How the data were processed

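For each library the authors deposited raw read counts over consecutive windows of 50 bp, unscaled. Paired-end reads had been demultiplexed, aligned with Bowtie2, freed of duplicates with SAMtools and counted with bedtools, with 1 count for each window that a read touched, which makes neighbors share reads. The genome build is not named beside the files. Their chromosome III length is that of R64, and gene positions and names were taken from RefSeq's R64 table. Bins right of the integration sites on chromosomes IV and XV (3193 of 24134) were left out.

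As in the authors' scaling, signal is the moving median (10 windows) relative to the 20th percentile of the library. Counts were summed in bins of 500 bp and tested with edgeR 4.0.16 (quasi-likelihood, library sizes from the 20th percentile, at least 10 counts in at least 3 libraries, Benjamini-Hochberg adjustment over all bins) on R 4.3.3. Calls needed both an adjusted p under 0.05 and a 2-fold change. Only the groups compared entered a fit, 2 for each of 15 comparisons and 4 for each of 5 differences of changes. On simulated counts with 200 changed bins, edgeR found 193 of a 2-fold change by adjusted p in libraries like Fkh1-MYC(MOP) and MOP, 96 with the fold minimum, and all 200 of a 4-fold change. For single values the exact permutation test, two-sided, was used. Counting error is the only error that a count itself shows, and replicate SDs are given beside it. Group names follow the genotypes in the labels, whose strain numbers differ from the paper's legends in 2 groups.

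The members, gene lists and tests were chosen with earlier results of these data known. All annotated genes of the region are named, as are the 3 outside loci with the highest r and a list of 20 switching genes, read in the bin that holds the base 250 bp before the start codon. A further item of that list is not reported here. The planned ratio of 2 sub-peaks could not be made with 1 sub-peak, and shape measures were chosen after seeing the data in its place. Alternatives were TMM, DESeq2, no filter, the middle window, all 60 libraries in 1 fit, a replicate block, other thresholds, no moving median, other scalings and leaving out each library. Replicate numbers did not pair the libraries.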

Additional observations from a re-analysis of the deposited data

Results flagged for a closer look

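A difference between 2 changes, tested as such in edgeR, was found in 5 comparisons at the RE, and each is given at the bin where it was largest. Between phases, the change relative to the LexA control differed by -1.88 on the log2 scale for Fkh1-MYC(MOP) and by -1.97 for Fkh1-FLAG(FLOP) (G1 minus unsynchronized, bin at 28501 for both). Between tags, MYC minus FLAG, it differed by 1.62 in unsynchronized cells (bin at 28501), by 2.13 in G1 (bin at 29501) and by 1.70 relative to fkh1-dbm (bin at 29501). In the bin at 28501 the LexA controls were also higher in G1, by 0.73 for MOP and 0.66 for FLOP. This enters the differences between phases. Groups of 3 libraries are too small for the outlier test used here.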

How the results depend on the processing

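The Fkh1 peak kept its direction and its calls at 29001 with every setting tried: TMM, DESeq2, no filter, the middle window, all libraries in 1 fit and leaving out each library. Over the bins that were called, 399 recomputed log2 fold changes stayed past the thresholds, 9 fell under the 2-fold minimum and 0 changed sign. Bins that were not called were also called at some settings. With the middle window these were 27001 in Fkh1-MYC(MOP) over MOP (1.33), 30501 in fkh1-dbm-MYC over untagged (1.05), and 27501 and 32501 in G1 Fkh1-MYC(MOP) over G1 MOP (1.13 and 1.03). On leaving out 1 library they were 31001 in Fkh1-MYC(MOP) over MOP (1.01 to 1.03), 30501 in fkh1-dbm-MYC (1.06) and 27501 in Mcm4 (-1.01). Without a minimum fold change, the bins that passed were 9 for Fkh1-FLAG(FLOP) over FLOP, 12 for Fkh1-MYC and 8 for Fkh1-FLAG over fkh1-dbm, 2 for fkh1-dbm-MYC and 1 for fkh1-dbm-FLAG over untagged, 1 for Orc1 and 3 for Mcm4 over HOP, 1 for Orc1 over Mcm4, 5 for Sir2, 1 for G1 FLOP, 4 for G1 MOP and 1 for G1 HOP over unsynchronized, and 7 for the difference of tags over fkh1-dbm. With the middle window they were 1 for fkh1-dbm-MYC over untagged, 0 for Mcm4 and 0 for Sir2.

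Windows without overlap at 3-fold were 24 for Fkh1-FLAG(FLOP), 24 for Fkh1-FLAG over fkh1-dbm, 25 for G1 Fkh1-MYC(MOP) and 4 for G1 Fkh1-FLAG(FLOP). At 1.5-fold they were 13 for G1 Fkh1-FLAG(FLOP), 6 for Mcm4, 13 for Sir2 and 2 for G1 MOP over MOP. With no moving median they were 1 for fkh1-dbm-MYC, 1 for Mcm4 and 3 for Sir2, and with library median scaling 6 for Sir2. With no moving median the sub-peaks were 2 in G1 HOP and 1 each in G1 Orc1-HA(HOP), G1 Mcm4-HA(HOP) and G1 Sir2-FLAG(FLOP), and with a moving mean over 3 windows 1 each in G1 HOP and G1 Orc1-HA(HOP). With the moving median, G1 minus unsynchronized width was -217 bp for MYC and turned to 283 bp for FLAG, and the right shoulder difference was -0.92 for MYC and -0.35 for FLAG. The cause was not tested. The log2 ratio of the mean RE signal also depended on the scaling. With library mean scaling it went from -0.44 to -1.26 for Sir2 over G1 FLOP and from 2.37 to 1.68 for G1 Fkh1-MYC(MOP) over G1 MOP. Between phases it went from -0.36 to -1.10 for MOP and from -0.02 to -1.53 for HOP. For Mcm4 it went from 0.42 to 0.71, and for Orc1 over Mcm4 from -0.03 to -0.34. Library median scaling gave -0.66 for Sir2 and -0.25 for G1 HOP over HOP.

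Leaving out 1 library gave 0 to 1 bins for fkh1-dbm-MYC, 0 to 2 for Mcm4, 0 to 2 for Sir2 and 3 to 6 for the difference of tags in unsynchronized cells. It gave 0 to 2 windows without overlap for fkh1-dbm-MYC, 0 to 2 for Mcm4 and 0 to 14 for Sir2, the last without G1 Sir2-FLAG(FLOP) replicate 1.

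Same-numbered libraries correlated in their deviations at -0.287 to 0.121, no comparison had all 3 over 0.1, and in none did every library correlate best with its own number. With the replicate block 7 bins were called in Fkh1-MYC(MOP) over MOP and 5 in Fkh1-FLAG(FLOP) over FLOP, and the block changed no count of bins.

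Depth limits most the 7 groups in which a window of background holds 6 to 16.5 counts. With 3 libraries a group, the exact test cannot go below 0.1.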
